A study of Mus musculus with 168 samples.

Results

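Htt, which encodes huntingtin, and 6 genes listed as its partners (Hap1, Hip1, Hip1r, F8a, Zdhhc17 and Sh3gl3) were followed in the hippocampus of mice with expanded CAG repeats in Htt. The partner genes encode proteins known to bind huntingtin, apart from Hip1r, a relative of Hip1 for which binding is not claimed here. These 7 genes were chosen by name, with earlier results of these data known, out of 39179 genes in the tables. All 7 passed the filter on low counts in every fit. The series held RNA-seq libraries of hippocampus from C57BL/6 mice, 8 for each of 7 genotypes at 2, 6 and 10 months of age (21 groups). Heterozygous knock-in mice carried an engineered Htt allele, in which human HTT exon 1 holds a CAG repeat of the length given in the name, beside an ordinary mouse allele. The expanded lines were Q80, Q92, Q111, Q140 and Q175, and the controls at each age (n = 16) were Q20 knock-in mice and wild type (WT) littermates of the Q20 line. By their labels, groups held 4 females and 4 males, except for 5 females in Q20 at 10 months and 5 males in Q80 at 2 months. The study's methods give 4 of each sex for every knock-in line and age. Per the study's methods, Q175 arose by spontaneous expansion in the Q140 line. The allele symbols given there end in Mem for Q20, Q92 and Q111, in Pfs for Q80 and in Mfc for Q140, endings that by mouse nomenclature stand for different laboratories. Repeat length and the make of the allele therefore cannot be told apart across all lines. The gene tables do not separate the knock-in allele from the mouse allele, so each value is the sum of both.

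Huntingtin is a large scaffold protein that takes part in vesicle transport along microtubules, in endocytosis and in gene regulation, and an expanded CAG repeat in its first exon, read as a glutamine stretch, causes Huntington's disease. Hap1 links huntingtin to the dynein and kinesin motors, and the F8a product binds huntingtin tightly and takes part in the traffic of early endosomes. Hip1, Hip1r and Sh3gl3 encode proteins of clathrin-mediated endocytosis, and Zdhhc17 encodes a palmitoyl transferase of huntingtin and of synaptic proteins. The coding start of mouse Htt is shown because it holds the tract that the 6 knock-in alleles differ in. It is the reference sequence of the GENCODE M21 transcript in exon 1 on the plus strand of build GRCm38, chr5:34761907-34762032, with the glutamine tract in capitals.
Htt coding start: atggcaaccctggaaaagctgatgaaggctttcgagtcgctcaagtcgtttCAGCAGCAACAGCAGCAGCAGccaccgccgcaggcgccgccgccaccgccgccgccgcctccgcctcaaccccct
The mouse tract has 7 glutamine codons (codons 18 to 24, 6 CAG and 1 CAA), and the codons after it read mostly as proline, the stretch to which the SH3 domain of the Sh3gl3 product binds. Exon 1 spans 366 bases, 1.5% of the 24438 exonic bases of Htt. Its share of the reads was not measured.

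Libraries held 30.6 to 46.4 M counts each, with a median of 37.9 M. A total of 12 libraries stood apart from the others of their age in standardized connectivity (below -5) and are called divergent. In these the log2 levels tilted with gene length, by -0.644 to -0.0103 (median -0.259) per doubling of exonic length, against -0.12 to 0.0536 (median 0.0126) in the other 156. Results are given with all libraries and, where the call or the size depends on it, with the divergent libraries left out. Transcripts of the sex chromosomes went against the label in 2 libraries, so the sexes given here and in the library names are those of the labels. All 10 hippocampal neuron markers were detected, at a summed level of 2565 to 7771 CPM (counts per M counts of the library) over all ages. The summed level of 10 choroid plexus markers ran from 29.5 to 8293 CPM, that of 8 striatal markers from 59.9 to 257.8 CPM and that of 9 hypothalamic and septal markers from 3.04 to 58.2 CPM, with Hcrt, Agrp and Ghrh at a median under 0.1 CPM at every age. At 6 months the library numbers and lanes in the labels place WT and Q175 apart from the other groups. No label names a batch, and a separate library series is an inference from these numbers, for which a series term was in the model at that age. The comparison of Q175 then draws on WT, and that of each other line on Q20.

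Levels of different genes were compared per length, in FPKM. Hap1 was the most abundant of the 7 genes, with a median of 62.5 FPKM over all libraries. It was followed by Zdhhc17 at 27.7, Htt at 18.7, Sh3gl3 at 18, Hip1r at 13.8, Hip1 at 7.41 and F8a at 3.57 FPKM. Without the divergent libraries Hap1 ran from 43.9 to 87.7 FPKM and lay wholly above Zdhhc17 (22.8 to 33.5 FPKM). The ranges of Htt (10.8 to 24.0 FPKM) and Sh3gl3 (14.8 to 23.5 FPKM) overlapped each other, the lowest Zdhhc17 values and the highest Hip1r values (9.81 to 17.4 FPKM). Hip1 (5.6 to 8.76 FPKM) lay below Hip1r and above F8a (2.93 to 4.97 FPKM) with no overlap on either side. The neighbours in this order that did not overlap were thus Hap1 and Zdhhc17, Hip1r and Hip1, and Hip1 and F8a.

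**Figure D1:**
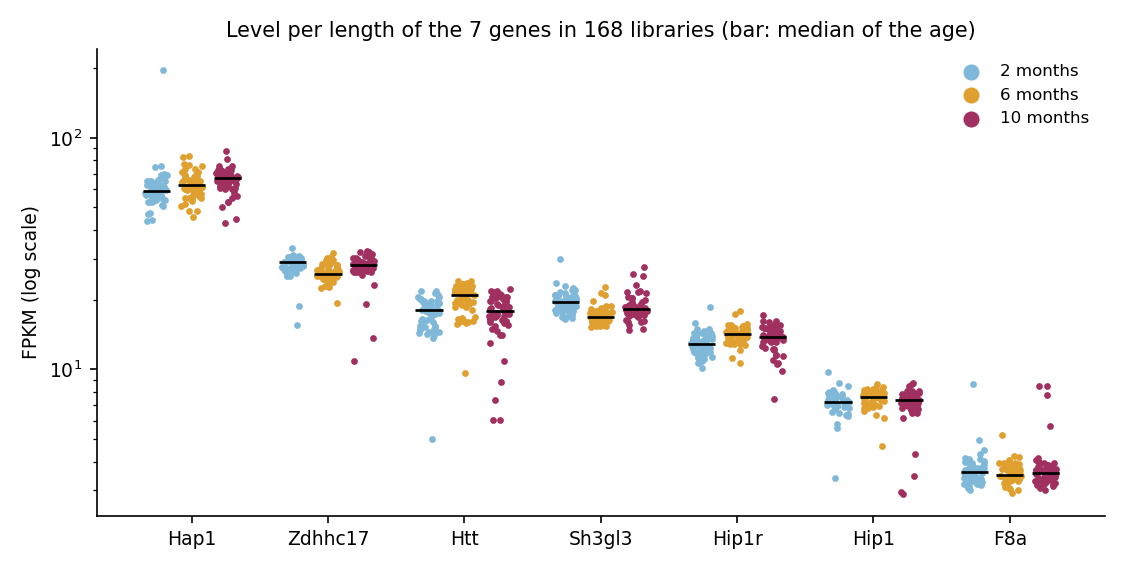
FPKM of the 7 genes in each library (y axis, log scale), by gene and age on the x axis, with a bar at the median of each age. Hap1 has the highest median (62.5 FPKM over all ages) and F8a the lowest (3.57 FPKM).

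The first question was whether Htt itself (ENSMUSG00000029104, chromosome 5, 34761740 to 34912534, plus strand) changed with the repeat. Its level did not follow repeat length in a straight line. Its median was lowest in Q175 at each of the 3 ages, and the medians of Q80 and Q92 lay above those of WT and Q20 at each age, as did that of Q111 at 6 and 10 months. Because the tissue holds many cell types, fewer cells of a type and less RNA per cell cannot be told apart in these values.

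At 2 months Q175 libraries held 61.9 to 184.4 CPM of Htt (median 176.4), against 186.2 to 236.3 CPM (median 215.7) in the controls. The 8 Q175 libraries were all below the lowest of the 16 controls, and the value of 61.9 CPM belongs to the divergent library male 2, without which Q175 began at 170.2 CPM. Q140 held 176.3 to 220.8 CPM (median 190.1), and 7 of its 8 libraries lay below the control median. The medians of Q80, Q92 and Q111 were 234.2, 238.6 and 221.5 CPM, with 6 of 8 libraries of each line higher than the median of the controls. The lowest library of each of these lines (183.1, 176.1 and 166.9 CPM) lay within the range of Q175, so the groups overlapped there.

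At 6 months Q175 held 184.2 to 199.1 CPM (median 192.6), against 220.2 to 245.5 CPM (median 235.1) in the WT libraries of its own series. Again no Q175 library reached the lowest control. Q92 held 269.3 to 281.2 CPM (median 275.6), against 200 to 266.2 CPM (median 255.0) in Q20, and all 8 Q92 libraries lay above all 16 controls. Q80 had a median of 277.5 CPM with 6 of 8 libraries above every control. Q111 had a median of 264.2 CPM, with a range of 262.5 to 273.2 CPM once its 2 divergent libraries (121.4 CPM in female 1 among them) were left out. Q140 held 194.6 to 248.3 CPM (median 230.0) and overlapped Q20 and WT.

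At 10 months the divergent libraries spread the groups. Q175 held 77.4 to 188.6 CPM (median 165.2), against 108.8 to 238.4 CPM (median 208.8) in the controls. Without the divergent libraries, Q175 held 134.0 to 188.6 CPM and the controls 201.2 to 238.4 CPM, with no overlap. Q140 held 183.7 to 210.2 CPM (median 192.2) and had 7 of 8 libraries below the control median. Q80, Q92 and Q111 had medians of 238.9, 239.8 and 240.9 CPM. The number of libraries higher than the median of the controls was 8 of 8 in Q111, 7 of 8 in Q92 and 6 of 8 in Q80, the exceptions including the divergent library female 4 of both Q92 (77.3 CPM) and Q80 (94.0 CPM).

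**Figure D2:**
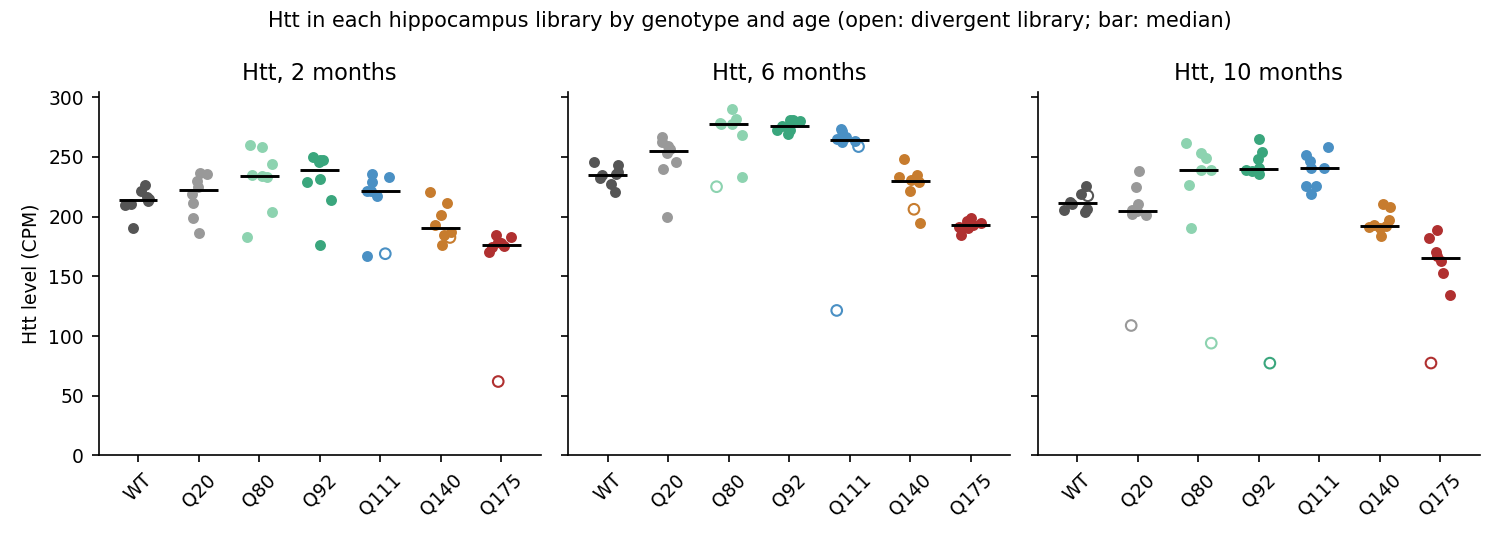
Htt level in CPM (y axis) in each library by genotype (x axis, in order of repeat length) at 2, 6 and 10 months, with open circles for divergent libraries and a bar at each group's median. The Q175 medians (176.4, 192.6 and 165.2 CPM) are the lowest of the 7 genotypes at each age, and the medians of Q80, Q92 and Q111 lie above the medians of both control groups at 6 and 10 months.

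Set in order of their medians without the divergent libraries, Q175 came first and Q140 second at every age. At 2 and 6 months WT followed, and at 10 months Q20. Neighbours in this order overlapped in range at each of the 3 ages, also Q175 and Q140.

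In the test of each line against the controls, Htt fell in Q175 at 6 months by 0.32 on the log2 scale (SE 0.080, edgeR adjusted p = 0.0086) and at 10 months by 0.47 (SE 0.13, adjusted p = 0.017). At 2 months the difference was -0.40 (SE 0.093) and missed the threshold (adjusted p = 0.078). After removal of the divergent libraries these were -0.28 (adjusted p = 0.040) at 2 months, -0.32 (adjusted p = 4.3e-07) at 6 months and -0.40 (adjusted p = 3.4e-09) at 10 months. At 10 months, leaving out the divergent male 4 of Q175 alone, with the other divergent libraries kept, gave -0.37 (adjusted p = 0.065). Within the series of WT and Q175 alone, the 6-month difference was -0.31 (SE 0.026, adjusted p = 1.3e-06).

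The other lines did not pass for Htt with all libraries. Differences from controls were 0.13, 0.099 and 0.096 in Q80 at 2, 6 and 10 months, 0.10, 0.16 and 0.12 in Q92, -0.016, -0.0025 and 0.19 in Q111, and -0.15, -0.15 and -0.088 in Q140, with SE of 0.080 to 0.13 and adjusted p of 0.785 or more. At 6 months the no-overlap of Q92 with the controls was thus not matched by a call (adjusted p = 1). When the divergent libraries were left out, Htt rose in Q80 at 10 months by 0.17 (SE 0.045, adjusted p = 0.026), and the difference of 0.21 in Q92 at 10 months came close (adjusted p = 0.050). Between Q175 and Q140, which share their allele's origin, Htt differed by -0.25 (SE 0.11, adjusted p = 1.0) at 2 months and by -0.38 (SE 0.15, adjusted p = 0.21) at 10 months. The 10-month difference passed without the divergent libraries (-0.28, SE 0.051, adjusted p = 1.3e-04). Q20 and WT, the carriers and non-carriers of a knock-in allele of ordinary length, differed in Htt by 0.030 (SE 0.11) at 2 months and by -0.065 (SE 0.15) at 10 months, both with adjusted p of 0.855 or more.

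A slope over CAG length fits a straight line through all groups. The slope of Htt was -0.19 log2 units per 100 repeats (SE 0.059, adjusted p = 0.37) at 2 months, -0.16 (SE 0.042, adjusted p = 0.016) at 6 months and -0.18 (SE 0.082, adjusted p = 0.41) at 10 months. The slope of 10 months passed as well without the divergent libraries (-0.16, adjusted p = 0.041). Among expanded lines only (Q80 to Q175), the slope was steeper, at -0.55 (SE 0.11, adjusted p = 0.14) at 2 months and -0.62 (SE 0.16, adjusted p = 0.0063) at 10 months. With Q175 left out, the slopes were -0.055, -0.095 and 0.027 at 2, 6 and 10 months, with adjusted p of 0.69 or more. The combined z of the 6- and 10-month slopes was -3.98 for Htt (adjusted p = 0.0021).

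Msantd1, a gene of unclear function, overlaps the 3′ end of Htt on the same strand, and with the counting rules not given, reads of the overlap cannot be told apart. Its count (60 to 202 per library) was small beside that of Htt (2468 to 11860). Msantd1 held 1.55 to 2.38 CPM in Q175 at 10 months (median 2.03), against 1.74 to 4.31 CPM (median 2.61) in controls, and fell by 0.44 on the log2 scale (SE 0.13, adjusted p = 0.034). At 6 months its difference was -0.27 (adjusted p = 0.12).

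Against this, the 6 partner genes varied little between genotypes. Their group medians at an age differed by at most 1.21-fold (Sh3gl3 at 10 months), whereas those of Htt differed 1.35-, 1.44- and 1.46-fold at 2, 6 and 10 months. In the comparisons of the 5 lines with controls over all libraries, Htt was called in Q175 at 6 and 10 months. There edgeR called 0 partner genes in any line at any age. Without the divergent libraries, the partner genes called included F8a in Q80 at 10 months and Sh3gl3 in Q175 at 6 months. That fit called 4.08% of all genes in Q80 at 10 months and 1584 genes in Q175 at 6 months. At an unadjusted p under 0.05, the partner genes were F8a in Q175 at 2 months, Hap1 and Sh3gl3 in Q175 at 6 months, Hap1 in Q111 at 2 months and Hip1r in Q140 at 6 months. Without the divergent libraries, F8a in Q175 and Hap1 in Q111 at 2 months turned, to -0.040 and -0.015. DESeq2 called Sh3gl3 in Q175 at 6 months as well. The share of all genes called at 2, 6 and 10 months was 0.0693%, 5.45% and 4.33% in Q175, 0.00577%, 0.0347% and 0.0695% in Q140, and 0.0231%, 0.00578% and 0.0232% in Q111. In Q92 it was 0% at 2 and 6 months (129 and 406 genes at unadjusted p under 0.05, and 0 by DESeq2) and 0.0116% at 10 months. In Q80 it was 0.0115% at 2 months, 0% at 6 months (433 genes at unadjusted p under 0.05, and 0 by DESeq2) and 0.0753% at 10 months.

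**Figure D3:**
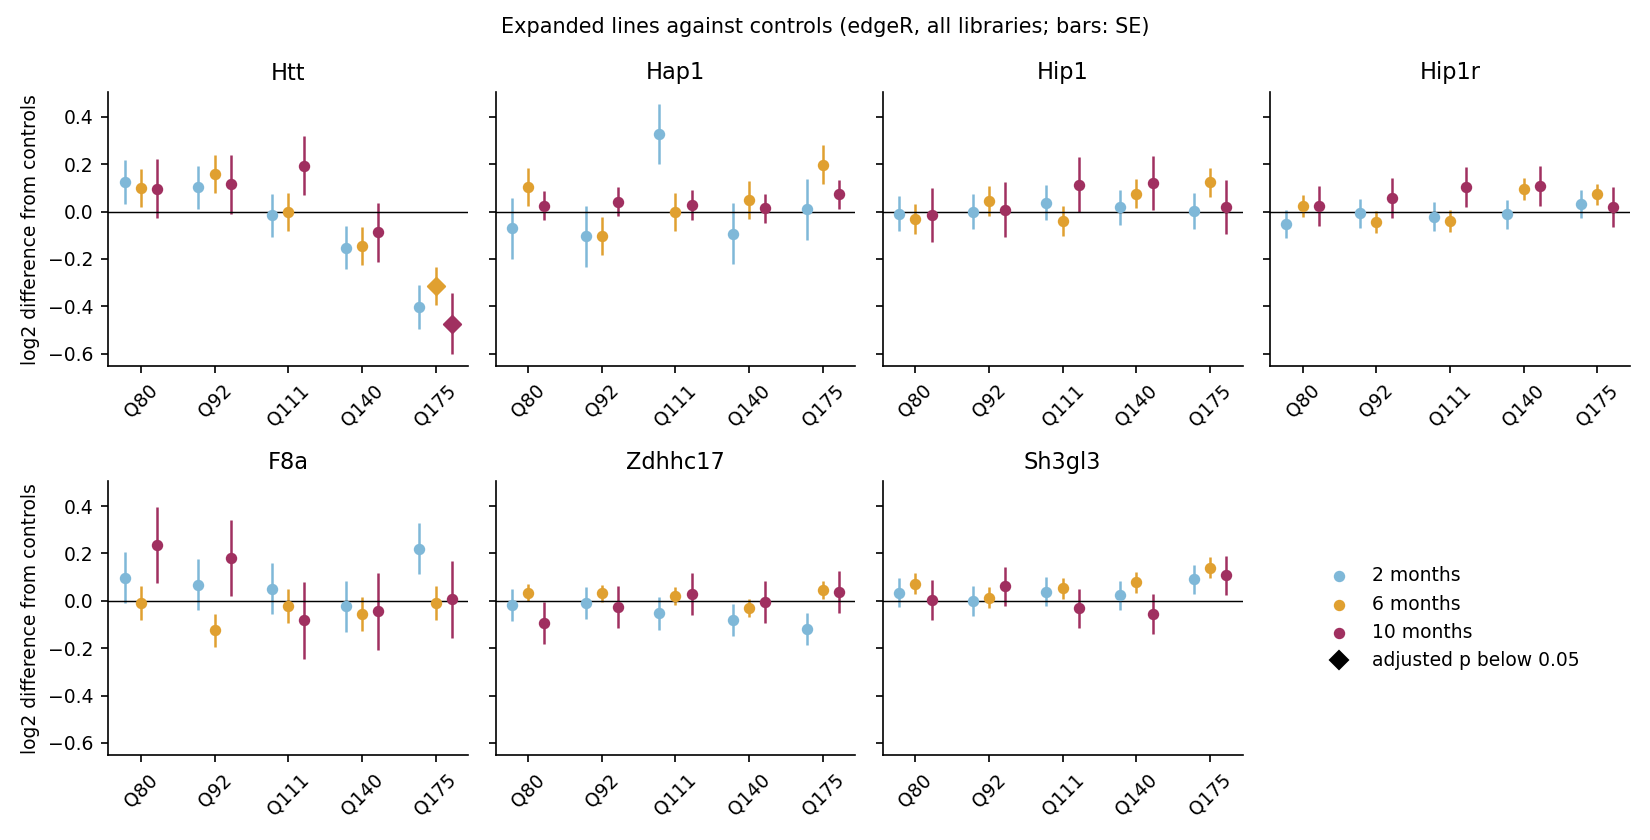
Log2 difference of each expanded line from the controls (y axis, edgeR with all libraries, bars show SE) for the 7 genes, by line (x axis) and age (colour), with diamonds where the adjusted p was below 0.05. The 2 diamonds are Htt in Q175 at 6 months (-0.32) and 10 months (-0.47), and the partner genes lie between -0.13 (F8a in Q92 at 6 months) and 0.33 (Hap1 in Q111 at 2 months).

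The slope called 2 of the 7 genes at 6 months (Htt and Sh3gl3), against 4.76% of all genes. At 2 and 10 months edgeR called 0 of the 7, with Htt alone under an unadjusted p of 0.05 and 0 calls by DESeq2, against 0.0346% and 1.56% of all genes. The combined z called 1 of the 7 (Htt), against 8.33% of all genes. Q20 against WT called 0 of the 7 at both ages tested (Sh3gl3 at 10 months had an unadjusted p under 0.05, and DESeq2 called 0), against 0.0115% of all genes at 2 months and 0.0174% at 10 months. Q175 against Q140 called 0 of the 7 (Htt at both ages had an unadjusted p under 0.05, and DESeq2 called 0), against 0% of all genes at 2 months (563 genes at unadjusted p under 0.05, and 6 called by DESeq2) and 1.95% at 10 months.

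Of the transport partners, Hap1 (ENSMUSG00000006930, chromosome 11, 100347327 to 100356128) was called in none of the 5 lines. Gm20394 overlaps it on the same strand. At 6 months it held 169.0 to 237.1 CPM in Q175 (median 191.8), against 146.2 to 220.1 CPM (median 171.2) in controls, and 7 of 8 Q175 libraries lay above the control median. The groups overlapped, and the difference of 0.20 (SE 0.080) did not pass (adjusted p = 0.16). At 10 months Q175 held 183.5 to 250.1 CPM (median 194.8), against 140.8 to 203.4 CPM (median 186.9) in controls, a difference of 0.073 (SE 0.062, adjusted p = 0.76). The slopes were 0.018, 0.080 and 0.033 per 100 repeats at 2, 6 and 10 months, with adjusted p of 0.31 or more.

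A single library set the most extreme value of Hap1. The divergent library female 3 of Q111 at 2 months held 558.9 CPM, while the other 7 libraries of that group held 150.2 to 186.0 CPM. In the same library the 9 hypothalamic and septal markers summed to 58.2 CPM and the 8 striatal markers to 257.8 CPM, the highest of all libraries, against age medians of 6.28 and 80.7 CPM. Hap1 is known as an abundant transcript of the hypothalamus. The part of other brain regions in this value was not tested. The difference of Hap1 in Q111 at 2 months was 0.33 (SE 0.13, adjusted p = 0.86) with this library and -0.015 (adjusted p = 0.97) without the divergent libraries.

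F8a (ENSMUSG00000078317, chromosome X, 73228291 to 73230795), an X-linked gene, was the least abundant of the 7. At 6 months it held 7.29 to 9.86 CPM in Q175 (median 8.94), against 8.18 to 10.4 CPM (median 8.65) in controls. The ranges overlapped, with 2 of 8 Q175 libraries below every control (difference -0.0082, SE 0.072, adjusted p = 0.98). At 10 months the medians were 9.24 CPM in Q175 and 8.28 CPM in controls, with a fitted difference of 0.0067 (SE 0.16, adjusted p = 1.0), and of -0.11 without male 4. All 8 Q175 libraries lay above the control median, while the divergent Q20 library female 5 among the controls held 21.1 CPM. Without the divergent libraries the difference was 0.032 (SE 0.048, adjusted p = 0.77). At 2 months the difference was 0.22 (adjusted p = 0.39), and -0.041 without the divergent male 2. Q80 at 10 months held 8.93 to 19.3 CPM (median 9.37), and without the divergent libraries F8a rose there by 0.17 (SE 0.048, adjusted p = 0.036), against 0.24 (SE 0.16, adjusted p = 0.64) with all libraries. Its slopes ran from -0.020 to 0.085 over the 3 ages, with adjusted p of 0.502 or more. Xlr5a overlaps F8a on the opposite strand, and reads of the 2 strands may not have been separated in the counting, whose rules are not given.

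Of the endocytic partners, Sh3gl3 (ENSMUSG00000030638, chromosome 7, 82173840 to 82307419), which encodes endophilin A3 was the only one of the 6 partner genes with a called slope on repeat length when all libraries were used. At 6 months it held 26.01 to 31.8 CPM in Q175 (median 28.8), against 23.6 to 28.0 CPM (median 25.3) in controls. All 8 Q175 libraries lay above the control median and 6 lay above every control. Its slope rose by 0.074 per 100 repeats (SE 0.021, adjusted p = 0.026), and the difference between Q175 and controls was 0.14 (SE 0.045) with an adjusted p of 0.054. This difference passed without the divergent libraries (0.14, adjusted p = 0.0021), as it did within the series of WT and Q175 alone (0.14, adjusted p = 0.020). Without the Q175 libraries the slope was 0.061 (adjusted p = 1.0).

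At 10 months Sh3gl3 held 27.3 to 35.9 CPM in Q175 (median 32.4), against 24.0 to 37.2 CPM (median 27.4) in controls. The highest control was the divergent Q20 library female 5, and 7 of 8 Q175 libraries lay above the control median. The difference was 0.11 (SE 0.082, adjusted p = 0.71), and 0.12 (SE 0.048, adjusted p = 0.088) without the divergent libraries. At 2 months the medians were 29.6 CPM in Q175 and 29.8 CPM in controls. The combined z of Sh3gl3 was 2.85 (adjusted p = 0.052), and 3.62 (adjusted p = 0.0039) without the divergent libraries. Over the whole table the combined z then called 2767 genes, against 1424 with all libraries.

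**Figure D4:**
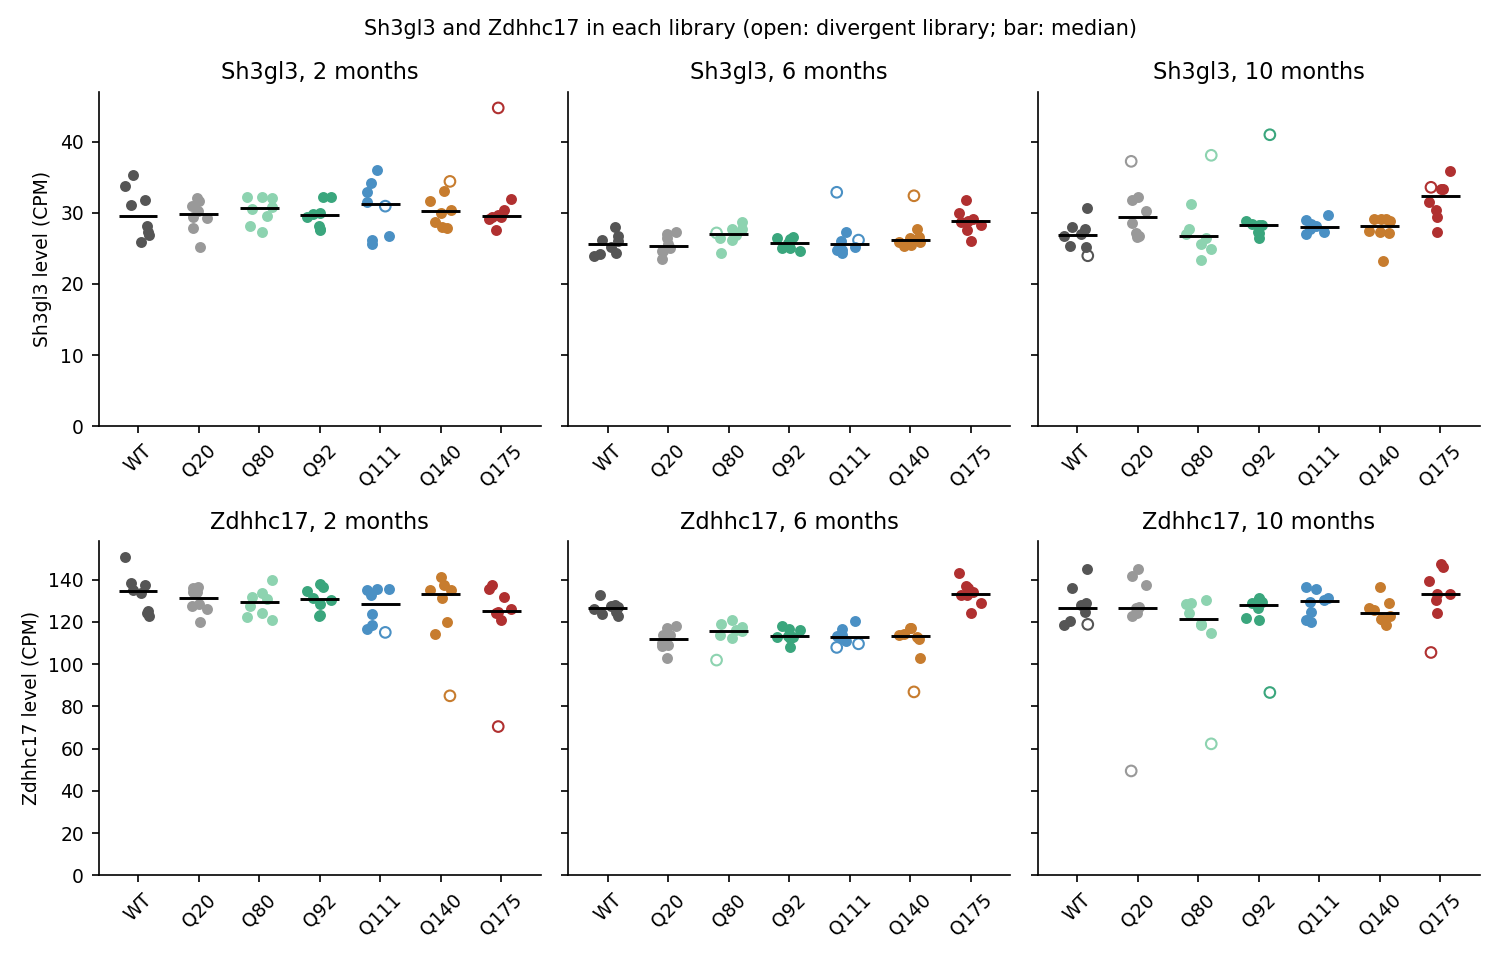
Levels in CPM (y axis) of Sh3gl3 (top) and Zdhhc17 (bottom) in each library by genotype (x axis, in order of repeat length) at 2, 6 and 10 months, with open circles for divergent libraries and a bar at each group's median. Sh3gl3 has its highest medians in Q175 at 6 and 10 months (28.8 and 32.4 CPM), and Zdhhc17 at 6 months is higher in Q175 and WT (medians 133.4 and 126.5 CPM), which shared a library series, than in the other 5 groups.

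Hip1 (ENSMUSG00000039959, chromosome 5, 135406531 to 135545120), which encodes an adaptor between clathrin and actin, held 58.1 to 66.2 CPM in Q175 at 6 months (median 62.4), against 52.1 to 63.7 CPM (median 55.9) in controls. All 8 Q175 libraries lay above the control median, with overlap of the ranges. The difference was 0.12 (SE 0.062, adjusted p = 0.31) over all libraries and 0.13 (adjusted p = 0.020) within the series of WT and Q175 alone. Its slope at 6 months was 0.063 (SE 0.030, adjusted p = 0.28), and 0.070 (adjusted p = 0.023) without the divergent libraries. At 10 months the medians were 56.6 CPM in Q175 and 55.9 CPM in controls. The combined z of Hip1 was 1.95 (adjusted p = 0.26), and 3.52 (adjusted p = 0.0052) without the divergent libraries, where 2767 genes were called.

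Hip1r (ENSMUSG00000000915, chromosome 5, 123973628 to 124005558), the relative of Hip1 that restrains actin at clathrin coats, held 51.7 to 60.1 CPM in Q175 at 6 months (median 56.6), against 45 to 60.1 CPM (median 55.2) in controls. The ranges were nearly nested (difference 0.072, SE 0.046, adjusted p = 0.49). Its slopes were 0.0079, 0.045 and 0.041 at 2, 6 and 10 months, with adjusted p of 0.34 or more. The combined z of Hip1r passed without the divergent libraries (3.42, adjusted p = 0.0071, with 2767 genes called), against 1.97 (adjusted p = 0.26) with them. Vps37b overlaps Hip1r on the opposite strand.

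Zdhhc17 (ENSMUSG00000035798, chromosome 10, 110941780 to 111010140), the palmitoyl transferase, differed between the library series at 6 months. It held 124.1 to 143.0 CPM in Q175 (median 133.4) and 122.9 to 132.9 CPM in WT (median 126.5), both of the same series. In Q20, of the other series, it held 103.0 to 117.9 CPM (median 111.9), and no library of Q20, Q80, Q92, Q111 or Q140 reached the lowest WT library. Without the series term Q175 differed from controls by 0.14 (adjusted p = 0.012), and with it by 0.045 (SE 0.037, adjusted p = 0.63). At 10 months the medians were 133.4 CPM in Q175 and 126.8 CPM in controls (difference 0.036, SE 0.088, adjusted p = 0.96). Its slopes were -0.070, 0.012 and 0.018 at 2, 6 and 10 months, with adjusted p of 0.41 or more.

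Age was compared over all libraries, averaged over genotypes. Library numbers and lanes also differ between the ages, so age and library series, as inferred from these, cannot be told apart. At 6 against 2 months Htt rose by 0.20 (SE 0.044, adjusted p = 7.3e-05) and Hip1r by 0.13 (SE 0.029, adjusted p = 9.6e-05), while Zdhhc17 fell by 0.14 (SE 0.030, adjusted p = 6.2e-05) and Sh3gl3 by 0.20 (SE 0.028, adjusted p = 3.4e-10). These are 4 of the 7 genes, against 43.4% of all genes. Hap1 (0.093, adjusted p = 0.0031, against 0.021 with all libraries) and Hip1 (0.048, adjusted p = 0.025) were called as well without the divergent libraries. The median of Htt was 245.7 CPM at 6 months, against 214.6 CPM at 2 months, and that of Sh3gl3 26.2 CPM against 29.97 CPM. This fit held no series term, and Zdhhc17 differed between the 6-month series. Without the divergent libraries its median went from 134.4 to 126.5 CPM in WT and from 126.0 to 133.4 CPM in Q175. In Q20, Q80, Q92, Q111 and Q140 medians were 129.2 to 134.9 CPM at 2 months and 111.9 to 116.1 CPM at 6 months. The part of the series in the fall of Zdhhc17 was not tested.

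At 10 against 2 months Hap1 rose by 0.11 (SE 0.041, adjusted p = 0.027) and Hip1r by 0.093 (SE 0.029, adjusted p = 0.0087), which are 2 of the 7 genes, against 26.8% of all genes. Hap1 rose by 0.19 (adjusted p = 1.8e-08) without the divergent libraries, and Sh3gl3 then fell by 0.085 (adjusted p = 9.9e-05), where its difference with all libraries was -0.063 (adjusted p = 0.078). Htt had a median of 210.9 CPM at 10 months, against 214.6 CPM at 2 months (difference -0.017, SE 0.044, adjusted p = 0.82). The slopes of the 7 genes on CAG length were then compared between ages. EdgeR called 0 of the 7 at 10 against 2, 6 against 2 and 10 against 6 months, and 0 had an unadjusted p under 0.05, against 1.22%, 0.0112% and 0.0892% of all genes. For Htt these differences of slope were 0.019, 0.031 and -0.012, with SE of 0.090 to 0.092. No difference between females and males was called in any of the 7, the X-linked F8a included (edgeR and DESeq2 called 0 at each age). An unadjusted p under 0.05 was seen for Hip1 and Sh3gl3 at 2 months and for Hip1r at 6 months, against 0.577%, 3.81% and 0.411% of all genes called at 2, 6 and 10 months.

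In the 5 divergent libraries with the strongest length tilt, Htt, Hip1 and Zdhhc17 were low (61.9 to 108.8, 22.6 to 33.9 and 49.5 to 105.5 CPM) and F8a and Sh3gl3 were high (14.1 to 21.6 and 33.6 to 44.7 CPM). The other 7 did not share this pattern throughout, with Hip1 at 76.8 CPM in Q111 female 3 at 2 months and Htt at 258.6 CPM in Q111 male 3 at 6 months. In Q175 male 2 of 2 months, with a tilt of -0.561, Htt was at 61.9 CPM (other Q175 libraries 170.2 to 184.4 CPM) and F8a at 21.6 CPM (others 7.63 to 9.78 CPM). In Q20 female 5 of 10 months, with a tilt of -0.644, Htt was at 108.8 CPM (other Q20 libraries 201.2 to 238.4 CPM) and F8a at 21.1 CPM (others 7.62 to 9.61 CPM). Htt has 24438 exonic bases, the most of the 7, and F8a has 2505, the fewest. The tilt is fitted on levels against exonic length, so low Htt and high F8a follow in part from how the 5 libraries were picked. The part of RNA quality in these libraries was not tested. Htt in Q175 at 10 months lay at 77.4 CPM in the divergent male 4, whose tilt was -0.309, and the fall of Htt in Q175 was called at every age without the divergent libraries.

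**Figure D5:**
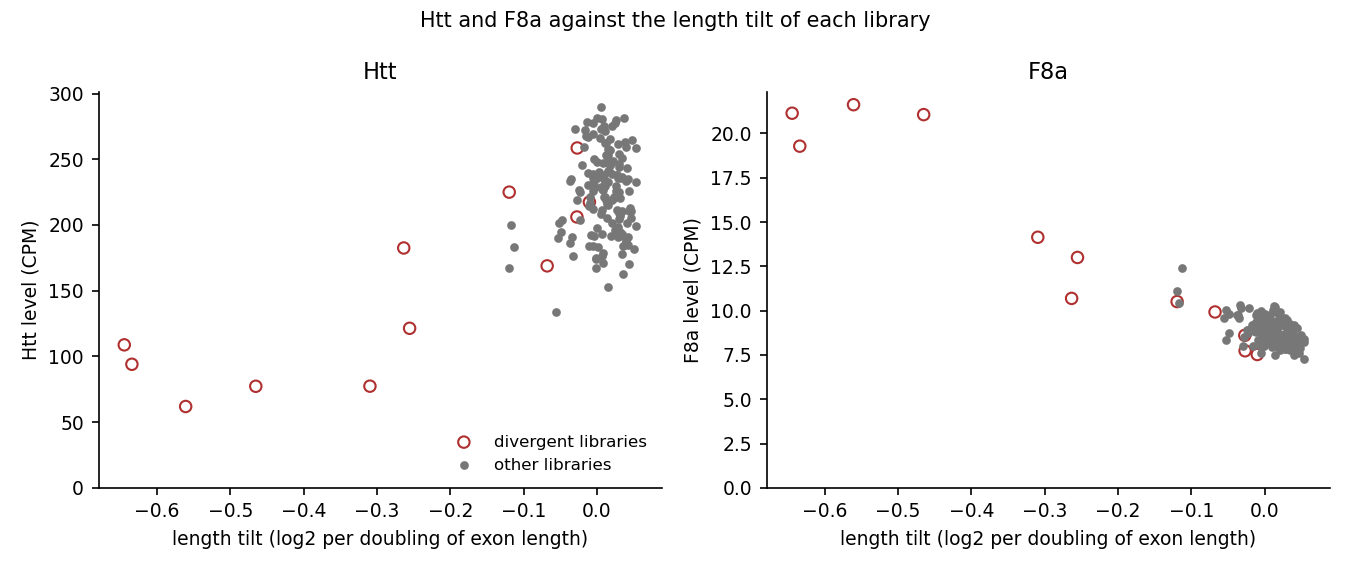
Htt (left) and F8a (right) level in CPM (y axis) against the length tilt of each library (x axis, log2 per doubling of exonic length), with open circles for the 12 divergent libraries. The 5 libraries with a tilt at or below -0.309 have Htt at 61.9 to 108.8 CPM and F8a at 14.1 to 21.6 CPM.

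Genes of like pattern were sought over the 21 group medians, among 15509 protein-coding genes, by Pearson's r. This describes likeness over groups that share library series and quality, and carries no test. For Htt the 3 highest were Rps6kl1 (0.88), Hapln4 (0.87) and Them6 (0.86), for Hap1 Col6a2 (0.90), BC024139 (0.84) and Celf6 (0.83), and for Hip1 Jup (0.81), Limk2 (0.80) and Lipe (0.80). For Hip1r they were Azin2 (0.93), Amdhd2 (0.92) and Jrk (0.92), and for F8a Emd (0.78), Msc (0.75) and Pglyrp1 (0.74). For Sh3gl3 they were Bbip1, Eif4a2 and Zfp422 (0.94 to 0.95). None of the genes named here is another of the 7. Between the 7 themselves, r was highest for Zdhhc17 with Sh3gl3 (0.78) and for Hip1 with Hip1r (0.56), and lowest for Hip1r with Sh3gl3 (-0.66). For Htt it was lowest with Sh3gl3 (-0.65), followed by Zdhhc17 (-0.55).

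A wider list of 61 genes of huntingtin biology, also chosen with earlier results of these data known, placed the 7 genes in context. In Q175 at 6 months 1 of the 61 rose and 8 fell (5.45% of all genes called), with a median difference of -0.014 log2 units, against 9.3e-05 over all genes. At 10 months 0 rose and 4 fell (4.33% of all genes called), with a median of -0.042 against -0.015 over all genes. Without the divergent libraries 5 rose and 13 fell at 10 months, against 13.0% of all genes called. At 2 months edgeR called 0 of the 61, against 0.0693% of all genes called. Of the 61, 5 had an unadjusted p under 0.05 there, and DESeq2 called 0.

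Within that list, 1 of 19 genes of axonal and vesicle transport rose and 1 fell in Q175 at 6 months (5.45% of all genes called). Kalrn encodes an exchange factor of dendritic spines. It held 514.7 to 619.2 CPM in Q175 at 6 months (median 547.4), against 614.1 to 782.3 CPM (median 712.3) in controls. There it fell by 0.40 (SE 0.057, adjusted p = 1.6e-06). It fell by 0.57 (SE 0.11, adjusted p = 3.3e-04) at 10 months. Trak2, a kinesin adaptor for mitochondria and a relative of Hap1, held 266.4 to 310.3 CPM (median 292.4) in Q175 at 6 months, against 227.1 to 263.5 CPM (median 242.3) in controls, with no overlap, and rose by 0.23 (SE 0.040, adjusted p = 6.9e-05). It was the only one of the 61 that rose at 6 months with all libraries.

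Of 12 genes of clathrin and endocytosis 0 rose and 2 fell in Q175 at 6 months (5.45% of all genes called), and the same 2 fell at 10 months (4.33% of all genes called): Dnm1, which encodes dynamin, by 0.16 and 0.26, and Sh3gl2, the close relative of Sh3gl3, by 0.17 and 0.19 (adjusted p of 0.00194 or less). In the fit without the divergent libraries 3 of the 12 fell at 6 months and 4 at 10 months. That fit also called more of all genes, 1584 at 6 months and 13.0% at 10 months. Of 5 genes of palmitoylation and its synaptic substrates 3 fell at 6 months (5.45% of all genes called) and 0 at 10 months (4.33%). Without the divergent libraries 3 fell at 10 months (13.0% of all genes called). Among those of 6 months with all libraries was Snap25, a substrate of Zdhhc17, which fell by 0.19 (SE 0.034, adjusted p = 9.2e-05). Bdnf, whose transport along axons depends on huntingtin, held 38.5 to 49.0 CPM in Q175 at 6 months (median 43.0), against 43.2 to 56.4 CPM (median 51.5) in controls, and fell by 0.33 (adjusted p = 2.8e-06), and by 0.35 (adjusted p = 1.2e-04) at 10 months. Of 13 genes of transcription and splicing, among them Rest and Crebbp, edgeR called 0 in Q175 at any age with all libraries. The share of all genes called there was 0.0693%, 5.45% and 4.33% at 2, 6 and 10 months. At each age 1 of the 13 had an unadjusted p under 0.05, and DESeq2 called 0. Without the divergent libraries 1 rose at 10 months (13.0% of all genes called). In the slope on CAG length 1 of the 61 rose and 8 fell at 6 months (4.76% of all genes called), led by Kalrn (-0.17), Bdnf (-0.14) and Trak2 (0.11). In the 10-month slope 1 fell (Sh3gl2, -0.089, adjusted p = 0.049), against 1.56% of all genes called.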

How the data were processed

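RNA-seq of hippocampus was measured in 7 genotypes at 3 ages, with 8 libraries each. The authors deposited expected counts per gene, not scaled, of which 16.89% are not whole numbers, and FPKM values of the same libraries. CASAVA 1.8.2 is named in the submitters' processing notes. For the aligner, counting program, build and annotation of these tables, the entry is: not given in the sources used here. The paper's read processing concerns microRNA libraries. Of 39179 identifiers, 37607 matched GENCODE M21 (GRCm38), the source of names, positions, exonic lengths and the Htt sequence. Over 588 pairs of libraries within groups the lowest chi-square per gene was 3.14, so no pair was counted as 1 library.

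The expected counts were rounded and tested in R 4.3.3 with edgeR 4.0.16 (filterByExpr with minimum count 10 and minimum total 15, TMM, quasi-likelihood F test, two-sided). Benjamini-Hochberg adjustment ran over all genes tested within each comparison, with a threshold of 0.05. "Called", "rose" and "fell" stand for adjusted p under it, and SE is the absolute log2 change divided by the square root of F. CPM are counts per M of the library's total. The model held sex and, at 6 months, the library series as inferred from library numbers and lanes. The comparison of ages, averaged over genotypes, held sex but no series term. Lines were compared with WT and Q20 together, and these comparisons share the controls. For the slope WT was set at 7 repeats and the log2 change is per 100 repeats. The combined z is Stouffer's sum of the signed z of the slopes at 6 and 10 months, with equal weights. Mice were separate animals by the study's methods.

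The alternatives were DESeq2 1.42.0, RLE scaling, no filter, divergent or sex-discordant libraries left out, the run of lanes as a term, a replicate block, limma 3.58.1 on log2(FPKM + 0.1) or log2(FPKM + 1), other sets of genotypes, other handling of the 6-month series, and each Q175 library left out in turn. Those for age, for differences of slope and for the combined z were chosen after seeing the data. Some of the fits, the slope on CAG length among them, were tested on simulated data first, but not all of them. All 7 genes were named at each comparison or counted. Of the 61 other genes, those past the threshold in Q175 or in the slope were named, at most 6 per comparison by absolute log2 change. The 7 genes and the lists were chosen with earlier results of these data known. The genes most like Zdhhc17 in pattern are not reported here.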

Additional observations from a re-analysis of the deposited data

Results flagged for a closer look

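Within each group of 8 libraries of a genotype and age, the highest or lowest library of each of the 7 genes was tested for its distance from the other 7. Of 147 such sets (7 genes in 21 groups) 37 held a library far from the rest. For a single set chance gives about 1 in 20. The same libraries recur across the genes, so the sets are not independent and their count cannot be read against that rate. Other genes were not tested in this way. Of the 37, 32 lay in divergent libraries, which were themselves picked for standing apart from the others of their age.

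The long transcript Htt was low in Q175 male 2 at 2 months (61.9 CPM), Q111 female 1 at 6 months (121.4 CPM), and at 10 months in Q20 female 5 (108.8 CPM), Q80 female 4 (94.0 CPM) and Q92 female 4 (77.3 CPM). Hip1 was low in Q175 male 2 at 2 months (26.7 CPM), Q111 female 1 at 6 months (36.5 CPM), and at 10 months in Q20 female 5 (23.2 CPM), Q80 female 4 (22.6 CPM), Q92 female 4 (27.2 CPM) and Q175 male 4 (33.9 CPM). It was high in Q111 female 3 at 2 months (76.8 CPM), the library in which Hap1 stood at 558.9 CPM. Zdhhc17 was low in Q175 male 2 at 2 months (70.5 CPM), in Q80 male 4 (101.9 CPM) and Q140 male 1 (86.8 CPM) at 6 months, and in Q20 female 5 (49.5 CPM), Q80 female 4 (62.3 CPM) and Q92 female 4 (86.6 CPM) at 10 months. Hip1r was high in Q140 female 4 at 2 months (74.8 CPM) and low in Q92 female 4 at 10 months (32.4 CPM).

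The short transcript F8a was high in Q140 female 4 (10.7 CPM) and Q175 male 2 (21.6 CPM) at 2 months, in Q111 female 1 at 6 months (13.0 CPM), and at 10 months in Q20 female 5 (21.1 CPM), Q80 female 4 (19.3 CPM), Q92 female 4 (21.1 CPM) and Q175 male 4 (14.1 CPM). Sh3gl3 was high in Q175 male 2 at 2 months (44.7 CPM), in Q111 female 1 (32.9 CPM) and Q140 male 1 (32.4 CPM) at 6 months and in Q92 female 4 at 10 months (41.0 CPM). All of these are divergent libraries.

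The other 5 lay in libraries that were not divergent. Htt was low in Q20 male 2 at 6 months (200 CPM, others 239.8 to 266.2 CPM), and Hip1 in Q20 male 3 at 2 months (49.1 CPM, others 56.2 to 61.7 CPM). Hap1 was high in Q20 female 1 at 6 months (220.1 CPM, others 153.0 to 183.6 CPM) and in Q175 male 3 at 10 months (250.1 CPM, others 183.5 to 202.7 CPM). Sh3gl3 was low in Q140 male 1 at 10 months (23.2 CPM, others 27.1 to 29.2 CPM).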

How the results depend on the processing

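Of 569 alternative values for 73 results, 491 kept their direction and their side of the threshold. For Htt in Q175 against controls, DESeq2 (-0.40, adjusted p = 0.018) and the fit without the divergent libraries (-0.28, adjusted p = 0.040) gave a call at 2 months. Limma gave none at 6 months (-0.28 and -0.26 with pseudocounts of 0.1 and 1) or 10 months (-0.45 and -0.42). Leaving out each Q175 library in turn gave -0.44 to -0.28 at 2 months (called only without male 3, adjusted p = 0.048), -0.33 to -0.30 at 6 months and -0.51 to -0.37 at 10 months (not called only without male 4, adjusted p = 0.065). The 6-month slope of Htt was not called without Q175 (-0.095), without the series term (-0.16, adjusted p = 0.077) or by limma (-0.14 and -0.13). Its 10-month slope was called without the divergent libraries (-0.16) and among expanded lines (-0.62), as were Q175 against Q140 (-0.28) and Q80 (0.17) at 10 months without the divergent libraries. The cause of these changes was not tested. Genes called over the whole table moved by over 1.5 times where divergent libraries were left out: 1049 in place of 269 and 1407 in place of 824 for the slopes at 10 and 6 months, 4, 1584 and 2245 in place of 12, 943 and 748 in Q175 at 2, 6 and 10 months, 1765 in place of 336 for Q175 against Q140 at 10 months, 139 in place of 12 in Q140 and 30 in place of 4 in Q111 at 10 months, 2767 in place of 1424 for the combined z, 8546 in place of 4807 at 10 against 2 months, 37 in place of 2 for the slopes of 6 against 2 months, and 261, 1027 and 384 in place of 100, 659 and 71 for sex at 2, 6 and 10 months. Q80 at 10 months had 4.08% of genes called in place of 0.0753%, 11.9% without the sex-discordant libraries and 0.556% with DESeq2. Without Q175 the slopes had 3, 3 and 17 in place of 6, 824 and 269, and among expanded lines 0 (2 months) and 1944 (10 months). Without the series term Q175 at 6 months had 2269 and Q140 had 174 in place of 6, and the series of WT and Q175 alone gave 1535. Other counts that moved as far had 13 genes or fewer called as reported, apart from sex at 10 months with DESeq2 (195) and Q175 against Q140 at 10 months without the sex-discordant libraries (533).

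The values below changed sign and were not called in either fit. Without the divergent libraries these were Hap1 in Q111 at 2 months (-0.015), F8a in Q175 at 2 months (-0.040), Htt in Q111 at 2 months (0.028) and 6 months (0.11), in Q20 against WT at 10 months (0.0077) and at 10 against 2 months (0.014), F8a (-0.012) and Hip1 (0.023) at 10 against 2 months, the 2-month slopes of F8a (-0.023), Hap1 (-0.043) and Hip1r (-0.016), the 10-month slopes of F8a (0.030) and Zdhhc17 (-0.0069), and the combined z of F8a (0.12). Without Q175 they were the 10-month slopes of Htt (0.027), F8a (0.0083), Sh3gl3 (-0.020) and Zdhhc17 (-0.0054), the 2-month slope of Hip1r (-0.014) and the 6-month slope of Zdhhc17 (-0.012), and among expanded lines the 10-month slope of Hip1r (-0.0031). With limma, at pseudocounts of 0.1 and 1, they were F8a in Q175 at 6 months (0.018 and 0.015), its 10-month slope (0.038 and 0.028), and the 2-month slopes of Hap1 (-0.012 with both), Hip1 (-0.0050 and -0.0019) and Hip1r (-0.019 and -0.018). With the run of lanes they were Htt in Q111 at 2 months (0.0029) and 6 months (0.00028) and in Q20 against WT at 2 months (-0.012), and without the series term Htt in Q111 at 6 months (0.034). Without the sex-discordant libraries they were the 10-month slopes of F8a (0.068) and Zdhhc17 (-0.013), Hip1 (-0.029) and Zdhhc17 (-0.016) in Q175 at 10 months, and Htt in Q20 against WT at 10 months (0.0095).

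Same-numbered libraries of different genotypes correlated no more than others in their deviations from group means (median r of 0.048, 0.068 and 0.080 at 2, 6 and 10 months, against 0.057, 0.068 and 0.075 for other numbers of the same sex), so the numbers do not pair them. With a replicate block, Htt in Q175 differed by -0.42, -0.32 and -0.51 at 2, 6 and 10 months (adjusted p = 0.21, 0.013 and 0.0041), and the signs changed for the 10-month slopes of F8a (0.062) and Zdhhc17 (-0.0084), the combined z of F8a (0.22), and Hip1 (-0.030) and Zdhhc17 (-0.0091) in Q175 at 10 months. Q80 at 10 months had 1338 genes called in place of 13, and Q175 at 2 months 0 in place of 12. The combined z of Sh3gl3 was called with it (3.34, adjusted p = 0.014). The depth of 30.6 M or more per library gave F8a, the least abundant of the 7, at least 246 counts. How reads of overlapping genes were assigned limits Htt (Msantd1), Hap1 (Gm20394), F8a (Xlr5a) and Hip1r (Vps37b).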
